A study of Macaca mulatta with 252 samples.

Results

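Layer 4 was compared with layer 5 in 6 granular areas of the rhesus macaque (Macaca mulatta) neocortex, the areas in which layer 4 forms a distinct band of small neurons. The members of the comparison were chosen from the sample titles alone: every layer 4 and layer 5 array of dorsolateral prefrontal cortex (DLPFC), primary somatosensory cortex (S1), primary auditory cortex (A1), the area titled temporal area (written TE here), visual area V2 and the motion-sensitive visual area MT. These were 46 of the 225 experimental arrays (252 arrays with controls), 23 of layer 4 and 23 of layer 5. Each array held RNA of 1 piece of tissue taken by laser capture from 1 adult animal without treatment or genetic change, and intensities were measured on Affymetrix rhesus probe sets. The arrays formed 23 pairs of a layer 4 and a layer 5 sample of the same area and animal. Female E and male C had pairs in all 6 areas, female D in 5 (no MT), male A in 4 (S1, V2, MT and TE), male B in DLPFC alone and female F in MT alone. Each group held 4 arrays, except that A1 held 3 of each layer. Areas without a layer 4 array (primary motor, orbitofrontal and anterior cingulate cortex) were left out, and primary visual cortex (V1), whose layer 4 was taken in 4 divisions, was used only as a separate set of arrays.

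Layer 4 is the main target of thalamic axons in sensory cortex, and its principal cells are small excitatory neurons that send their output within the cortex. Layer 5 holds large pyramidal neurons, many of which send axons to the brainstem, spinal cord, striatum and thalamus. RORB, a nuclear receptor, marks layer 4 neurons; FEZF2, a zinc finger factor that specifies neurons projecting below the cortex, and ETV1, an ETS family factor, mark layer 5. The comparison asks which other genes separate these neighbouring layers. A strip of tissue holds glia, vessels and interneurons beside its principal cells, so fewer cells of a type and less RNA per cell cannot be told apart.

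Some libraries were nearer to another layer than to the one on their label. Each array was compared, within its area, with the layer means of the other animals, and 42 of 46 were most like the layer on their label (20 of 23 in layer 4 and 22 of 23 in layer 5). In S1 of female D, the library labelled layer 4 was most like layer 3 (r = 0.662 across 952 genes that varied between layers, against -0.0187 for layer 4), and the library labelled layer 5 was most like layer 4 (0.728, against 0.508 for layer 5). RORB was 5.77 in the library labelled layer 4 of that animal and 7.13 in the library labelled layer 5, on the log2 intensity scale used throughout. In the other S1 animals RORB lay between 4.53 and 7.12 in layer 4 and between 3.57 and 4.88 in layer 5. FEZF2 was 5.37 in the library labelled layer 4 of female D, below the range of 7.56 to 9.42 in the other S1 layer 4 arrays. CUX2, an upper layer factor, was 9.59 there, above their range of 5.17 to 6.80. These 2 genes had similar levels in layer 4 of V1. In the mean of V1 layers 4ca and 4cb, CUX2 lay between 9.51 and 10.11 over animals and FEZF2 between 4.93 and 6.01. What sets this S1 library apart was not tested. The layer 4 arrays of S1 in male C (0.481 for layer 4, 0.617 for layer 5) and, by a small margin, of DLPFC in male B (0.618 and 0.623) were nearer to layer 5. The layer means used for both held arrays of female D. In S1 these are the 2 libraries above. In DLPFC the layer 5 array of female D was at 0.679 for layer 4 and 0.689 for layer 5. The values below hold all pairs, and counts of calls that changed without the S1 pair of female D are given both ways.

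Calls needed both an adjusted p below 0.05 and a mean difference of at least 1 on the log2 scale, a doubling. The p came from limma's moderated test on 1 mean difference per animal, with Benjamini-Hochberg adjustment over 10291 genes. Errors written with ± are standard errors of that fit, with n = 6 animals. By this rule 34 genes (0.330%) were higher in layer 4 and 36 (0.350%) were higher in layer 5. At the adjusted p alone, 887 genes (8.62%) were higher in layer 4 and 1001 (9.73%) in layer 5, so most differences between the layers were under a doubling. The median difference over all tested genes was -0.01. Without the S1 pair of female D, the counts were 37 (0.360%) and 36 (0.350%): all 70 calls held, and OVOL2, IGSF3 and an unnamed locus were added in layer 4, genes outside the naming rule and noticed after their values were seen. Over all tested genes, 33.7% had an unadjusted p under 0.05. Every animal had the same sign in 33 of the 34 genes higher in layer 4 (CD24 was the exception) and in all 36 higher in layer 5, against 1236 and 1344 of the 10291 tested genes. The ranges of the animal means in the 2 layers did not overlap for 23 of 34 and 19 of 36, against 1.80% and 1.06% of all tested genes. The genes were called on these same values, so both counts are a description.

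**Figure D1:**
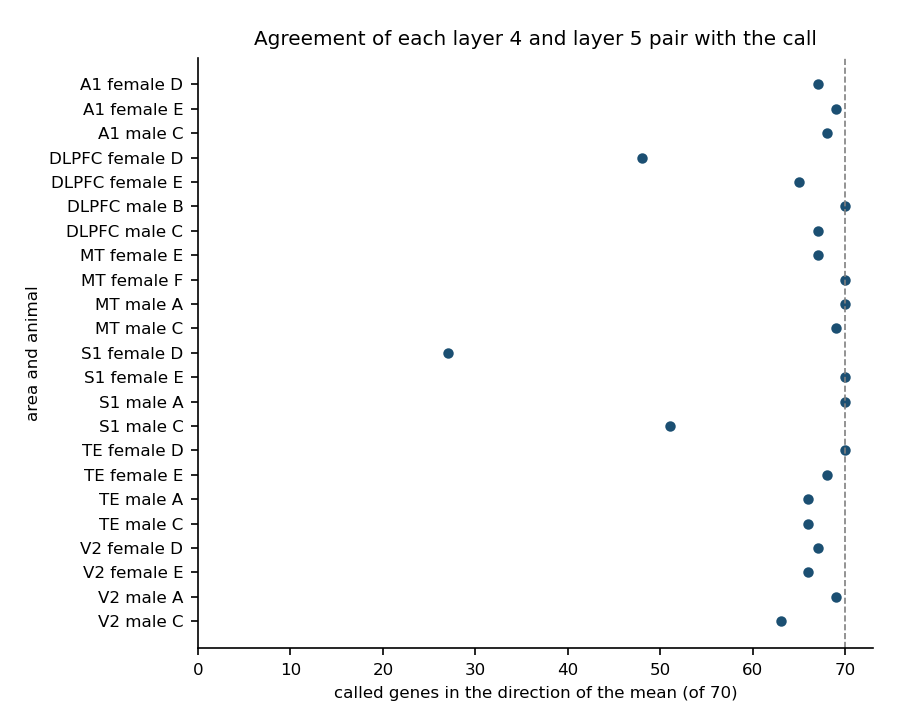
For each of the 23 pairs (area and animal, vertical axis), the horizontal axis counts how many of the 70 called genes differed in the direction of the mean over animals; the dashed line marks 70. The S1 pair of female D stood at 27, the DLPFC pair of female D at 48 and the S1 pair of male C at 51, and the other 20 pairs lay between 63 and 70. The called genes were chosen on these pairs, so the high counts are a description.

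The markers that define the layers differed in the labelled direction, with unequal size. RORB was 5.64 at the lowest, 6.28 at the median and 6.77 at the highest over the animal means of layer 4, and 4.27, 5.03 and 5.94 in layer 5. It was higher in layer 4 in all 6 animals and in 21 of 23 pairs, although the ranges of the animal means overlapped. The difference was 1.24 ± 0.12 (2.37-fold, limma adjusted p = 0.00044), and the 2 pairs against it were both of female D, S1 at -1.36 and DLPFC at -0.48. FEZF2 ran from 7.47 through 8.14 to 8.97 in layer 4 and from 8.92 through 9.09 to 9.89 in layer 5. It was lower in layer 4 in every animal, from -1.45 to -0.65, but the mean difference of -0.97 ± 0.09 (adjusted p = 0.00044) fell short of the log2 threshold and it was not called. FEZF2 is high in both layers when set against the layers above: its mean was 5.20 in layer 2, 5.03 in layer 3, 8.21 in layer 4, 9.18 in layer 5 and 8.97 in layer 6. ETV1 ran from 9.62 through 9.73 to 9.95 in layer 4 and from 10.28 through 10.37 to 10.56 in layer 5, with no overlap, and its difference of -0.64 ± 0.07 (limma adjusted p = 0.00089) also stayed under the threshold. It was lower in layer 4 in 21 of 23 pairs, and the 2 against it were in S1 (male A at 0.06, male C at 0.62). Its area means ran from -1.83 in V2 to -0.22 in S1.

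Genes other than RORB gave the larger contrasts on the layer 4 side. FBXO15, an F-box protein of ubiquitin ligase complexes, ran from 9.93 through 10.13 to 10.63 in layer 4 and from 7.05 through 7.80 to 8.63 in layer 5. All 6 layer 4 means lay above all layer 5 means, and the difference was 2.37 ± 0.21 (5.17-fold, adjusted p = 0.00044). MXRA5, a matrix adhesion protein, ran from 6.29 through 6.62 to 6.89 in layer 4 and from 4.01 through 4.58 to 5.17 in layer 5, again with no overlap (2.03 ± 0.16, limma adjusted p = 0.000327). Its layer 5 mean of 4.59 lay under the level filter. Both genes had their highest mean over the 5 layers in layer 4. TLL1, a secreted metalloprotease of the tolloid family, shared this peak, at 6.74 in layer 4 against 3.60 in layer 2, 3.70 in layer 3, 5.07 in layer 5 and 4.04 in layer 6. Its difference was 1.67 ± 0.29 (adjusted p = 0.00597), with female F (MT alone) at 3.45 and the other 5 animals between 0.76 and 1.73. The MT pairs of the other animals lay between 1.61 and 2.78. Within S1, A1 and TE alone the TLL1 difference was 0.74 and not called.

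PKIB, an inhibitor of cAMP-dependent protein kinase, was 3.09-fold higher in layer 4 (1.63 ± 0.17, adjusted p = 0.000609). MDM1, a microtubule-binding protein of centrioles, was 2.70-fold higher (1.43 ± 0.19, adjusted p = 0.00189). Both peaked in layer 4 and were higher there in all 6 animals, without overlap of the animal means. With the mean of all probe sets of a gene, MDM1 was 0.82 and not called, as were NTNG1 (0.63), EPHA3 (0.63), EGR2 (0.44) and BDNF (-0.43), which are described below.

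Other large layer 4 genes had their highest mean in layer 2 or layer 3. CBLN4, a secreted organiser of synapses, had a mean of 9.54 in layer 2, 9.51 in layer 3, 8.87 in layer 4, 6.89 in layer 5 and 7.05 in layer 6. Its animal means ran from 8.46 through 8.84 to 9.27 in layer 4 and from 6.46 through 6.90 to 7.46 in layer 5. The difference was 1.98 ± 0.11 (3.93-fold, adjusted p = 0.0001), with no overlap. SH2D4B, an SH2 domain protein, fell across the layers from 8.51 in layer 2 to 6.78 in layer 4 and 4.68 in layer 5, the last under the level filter. Its difference of 2.09 ± 0.32 (adjusted p = 0.00381) ranged from 0.88 in male B (DLPFC alone) to 3.63 in female F (MT alone). Over all animals its pairs lay between -0.01 and 1.17 in DLPFC and between 2.00 and 3.63 in MT. Female E was at 1.10 in DLPFC and 3.25 in MT, and male C at 1.17 and 2.00. For male B and female F, with 1 area each, area and animal cannot be told apart. TNNI3K, a kinase first described by its binding to cardiac troponin I, peaked in layer 3 (8.31) and was the least variable of these genes between animals, from 1.21 to 1.72 (1.52 ± 0.08, adjusted p = 6.34e-05). MED14, a subunit of the Mediator complex, was 1.80 ± 0.34 higher in layer 4 (adjusted p = 0.00886), but of its other probe sets above the median level 1 differed by 1.01, 1 by 0.25 and 1 by 0.09, and their mean was not called. Over all 34 genes higher in layer 4, the highest of the 5 layer means was in layer 4 for 21, in layer 2 for 7 and in layer 3 for 6.

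**Figure D2:**
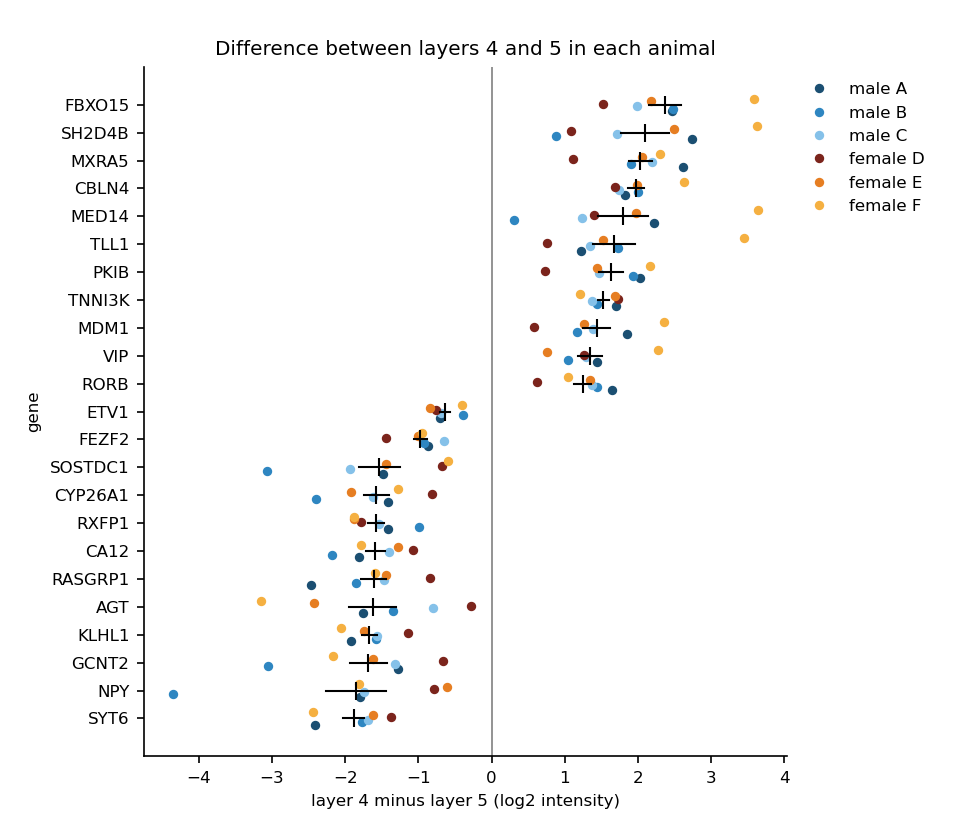
Layer 4 minus layer 5 on the log2 scale (horizontal axis) is shown per gene (vertical axis). Genes are RORB, FEZF2, ETV1 and the 10 largest called genes in each direction. The largest were taken from genes with the same sign in all animals, with symbols of unnamed loci passed over. Each coloured point is 1 animal's mean over its areas, and the black mark and bar are the mean and its standard error. Every point of a gene lies on the same side of 0, which the choice fixed for all genes but RORB, FEZF2 and ETV1. NPY in male B (-4.35, DLPFC alone) and TLL1 in female F (3.45, MT alone) lie apart from the other animals.

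On the layer 5 side the largest difference among the named genes was in SYT6, a synaptotagmin of corticothalamic layer 6 neurons; the unnamed locus LOC718091 was at -1.89 as well (± 0.25). SYT6 ran from 4.09 through 4.44 to 5.28 in layer 4 and from 5.81 through 6.56 to 7.06 in layer 5, without overlap. The difference was -1.89 ± 0.14 (3.69-fold, adjusted p = 0.000246), lower in layer 4 in 22 of 23 pairs. Its mean was higher again in layer 6, at 7.80. KLHL1, an actin-binding kelch protein, ran from 3.98 through 4.67 to 5.23 in layer 4 and from 5.95 through 6.31 to 6.82 in layer 5 (-1.67 ± 0.11, limma adjusted p = 0.000128). The layer 4 means of SYT6 (4.58) and KLHL1 (4.65) lay under the level filter of 4.75, so both genes were tested through their layer 5 level. RXFP1, the receptor of the peptide relaxin, ran from 5.66 through 6.12 to 7.29 in layer 4 and from 7.45 through 7.92 to 8.29 in layer 5 (-1.58 ± 0.11, adjusted p = 0.000236). RXFP1 rose stepwise with depth, from 4.71 in layer 2 through 6.29 in layer 4 to 8.10 in layer 6, and was lower in layer 4 in all 23 pairs.

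CA12, a membrane carbonic anhydrase, was also lower in layer 4 in all 23 pairs (-1.59 ± 0.13, adjusted p = 0.000357). GCNT2, a glycosyltransferase that branches sugar chains, differed by -1.69 ± 0.26 (adjusted p = 0.00354). Male B (DLPFC alone) was at -3.06 and the other animals between -0.67 and -2.16. RASGRP1, an activator of Ras that responds to calcium and diacylglycerol, differed by -1.61 ± 0.17 (adjusted p = 0.000655) and peaked in layer 6 at 9.51. CYP26A1, the enzyme that clears retinoic acid, was one of 7 genes that peaked in layer 5, with means of 4.11 in layer 4, 5.68 in layer 5 and 5.44 in layer 6 (-1.57 ± 0.17, adjusted p = 0.000817). SOSTDC1, a secreted antagonist of BMP and Wnt signals, differed by -1.53 ± 0.28 (adjusted p = 0.00762). Its values ran from -0.60 in female F (MT alone) to -3.06 in male B (DLPFC alone). The layer 4 means of CA12 (4.49), GCNT2 (4.55), CYP26A1 (4.11) and SOSTDC1 (4.39) also lay under the level filter of 4.75. Over all 36 genes higher in layer 5, the highest layer mean was in layer 6 for 19, in layer 2 for 9, in layer 5 for 7 and in layer 3 for 1. MEIS2, a homeobox factor and 1 of the genes highest in layer 2, had its lowest mean in layer 4, with means of 9.84 in layer 2, 8.40 in layer 3, 7.15 in layer 4, 8.24 in layer 5 and 8.87 in layer 6. Its difference of -1.09 ± 0.15 (limma adjusted p = 0.002) lost its call in 6 of 27 alternatives. Among them were those without male B (-0.94), without DLPFC (-0.97), and with animals weighted by their number of areas (-0.98).

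**Figure D3:**
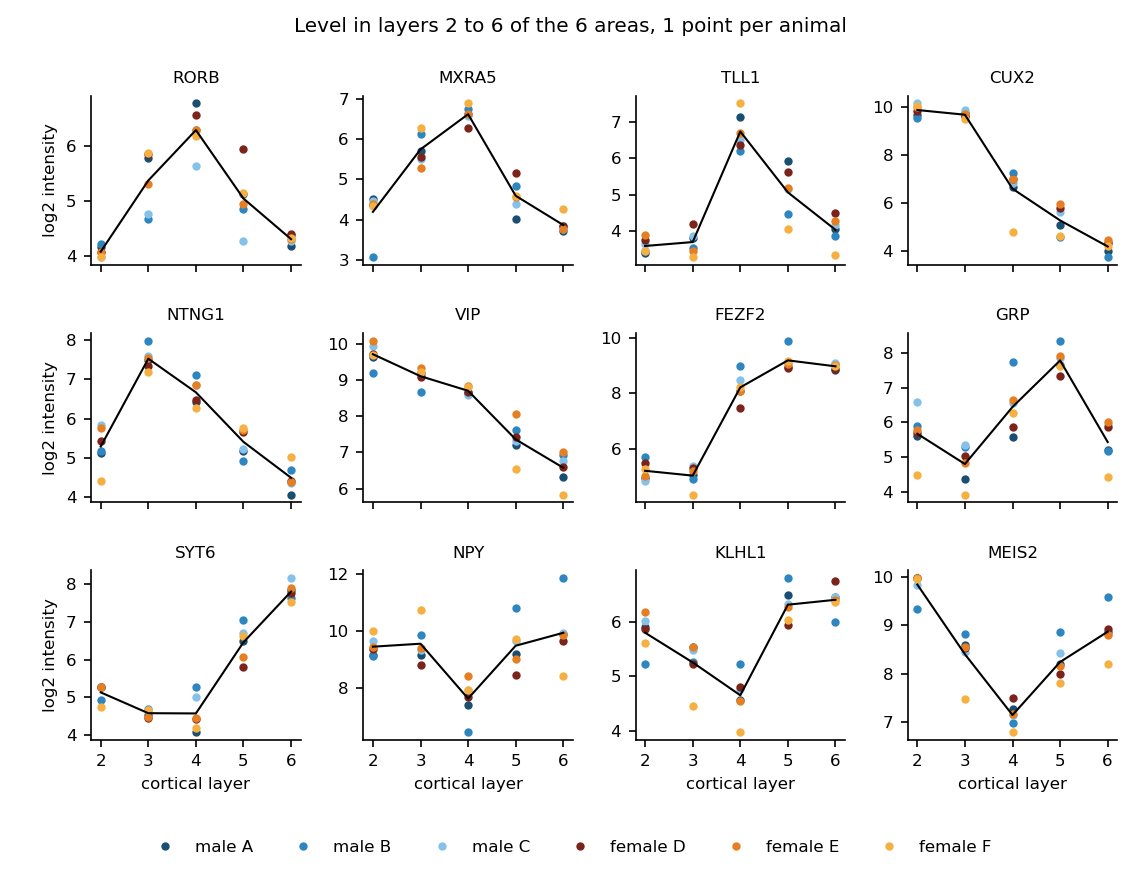
Mean log2 intensity (vertical axes) in layers 2 to 6 (horizontal axes) of the 6 areas for 12 genes; each coloured point is 1 animal's mean over its areas and the line joins the means over animals. RORB, MXRA5 and TLL1 peaked in layer 4, CUX2 and VIP were lower in each deeper layer, NTNG1 peaked in layer 3, FEZF2 rose between layers 3 and 4, GRP peaked in layer 5, SYT6 peaked in layer 6, and NPY and MEIS2 were lowest in layer 4. Intensities of different genes come from different probe sets and cannot be set against each other.

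Counts in the gene lists below were not tested against the shares over all tested genes. At the adjusted p alone those shares were 8.62% higher in layer 4 and 9.73% higher in layer 5. At an unadjusted p under 0.05 the share was 33.7%. Among 9 tested layer 4 neuron genes, RORB was the 1 called, 5 were higher in layer 4 at the adjusted p alone and 4 did not pass, with a list median of 0.30. The other 4 that passed were RORA, the relative of RORB (0.66 ± 0.14, adjusted p = 0.014), the ether-a-go-go potassium channels KCNH5 (0.43) and KCNH8 (0.40), and the semaphorin receptor PLXND1 (0.30). Of 12 layer 5 neuron genes, 0 were called by limma; 5 were higher in layer 5 and 2 in layer 4 at the adjusted p alone, 8 had an unadjusted p under 0.05, and the median was -0.21. VAT1L, a marker of large subcortically projecting neurons, differed by -0.60 ± 0.10 (adjusted p = 0.00425) and CRYM, a thyroid hormone binding protein, by -0.42 ± 0.10 (adjusted p = 0.0185). DEPTOR, an inhibitor of mTOR signalling, was on the same list and went the other way, at 0.66 ± 0.13 (adjusted p = 0.00936).

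Marker genes of the neighbouring layers were counted beside these. Of 10 layer 6 neuron genes, SYT6 was called and 4 were higher in layer 5 at the adjusted p alone, with OPRK1, the kappa opioid receptor, at -0.72 and ZFHX3, a zinc finger homeobox factor, at -0.59; the median was -0.16. The mean level of the list lay between 7.06 and 7.21 over animals in layer 4 and between 7.31 and 7.71 in layer 5. Of 10 upper layer neuron genes, CUX2 was called, and at the adjusted p alone 3 were higher in layer 4 and 3 in layer 5 (median 0.11). CUX2 ran from 4.78 through 6.92 to 7.24 in layer 4 and from 4.58 through 5.33 to 5.96 in layer 5 (1.33 ± 0.25, adjusted p = 0.00848). Its difference ran from 0.17 in female F (MT alone) to 2.66 in male B (DLPFC alone). Its mean in layers 2 and 3 was 9.89 and 9.69, and within S1, A1 and TE alone the difference was 0.57 and not called. The area means of the CUX2 difference were 3.04 in V2, 1.81 in DLPFC, 1.14 in S1, 1.11 in A1, 0.72 in MT and -0.25 in TE. In MT, male A was at 3.01 and the other pairs lay between -0.31 and 0.17. HPCAL1, LAMP5 and the peptide precursor CARTPT, also upper layer genes, were higher in layer 5, at -0.65, -0.55 and -0.62. The part that cells of layers 3 and 6 had in the called genes was not tested.

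Interneuron genes separated the layers in both directions. Of 9 tested inhibitory neuron genes, VIP and PVALB were called higher in layer 4 and NPY higher in layer 5, with 4 and 1 at the adjusted p alone (median 0.17). VIP, the peptide of interneurons that mostly inhibit other interneurons, ran from 8.59 through 8.67 to 8.82 in layer 4 and from 6.54 through 7.37 to 8.07 in layer 5. It was higher in layer 4 in all 23 pairs (1.34 ± 0.16, adjusted p = 0.00123), and highest in layer 2 at 9.71. PVALB, the calcium-binding protein of fast-spiking interneurons, ran from 8.99 through 9.93 to 10.55 in layer 4 and from 7.92 through 8.90 to 9.45 in layer 5. It peaked in layer 4 (1.06 ± 0.11, adjusted p = 0.000545) and its call sat at the threshold, since without female F the difference was 1.00 (adjusted p = 0.00111) and just short of it.

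NPY, a peptide of a further interneuron class, ran from 6.47 through 7.80 to 8.42 in layer 4 and from 8.48 through 9.44 to 10.82 in layer 5. The ranges did not overlap, but male B, with 1 DLPFC pair, differed by -4.35 and the other 5 animals by -0.60 to -1.81. The difference was -1.85 ± 0.41 (adjusted p = 0.0161), and -1.35 without male B (adjusted p = 0.00517). It was lower in layer 4 in 18 of 23 pairs, and in DLPFC, MT and V2 alone it was -1.38 and not called (adjusted p = 0.106). NPY was lower in layer 4 than in layers 2, 3, 5 and 6, at 7.64 against 9.46, 9.56, 9.49 and 9.94. The enzymes of GABA synthesis, GAD1 (0.17 ± 0.05, adjusted p = 0.0368) and GAD2 (0.17 ± 0.13, adjusted p = 0.371), gave small values, and DLX1, a factor of interneuron development, was higher in layer 4 by 0.40 ± 0.05. Of 6 channel genes of fast-spiking cells, 0 were called by limma; KCNA2 and SCN1A were higher in layer 4 at the adjusted p alone, each by 0.34 (3 with KCNC1 without the S1 pair of female D), and 4 had an unadjusted p under 0.05.

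Of 19 tested neuropeptides and their receptors, 1 was called higher in layer 4 (VIP) and 3 in layer 5 (NPY, RXFP1 and GRP), with 2 and 8 at the adjusted p alone, 9 that did not pass and a median of -0.09. GRP, gastrin-releasing peptide, ran from 5.58 through 6.42 to 7.75 in layer 4 and from 7.33 through 7.75 to 8.36 in layer 5 (-1.34 ± 0.15, adjusted p = 0.000816). It peaked in layer 5, at 7.79, and was 5.43 in layer 6. SSTR2, a somatostatin receptor, differed by -0.34 and PENK, the enkephalin precursor, by -0.20. PTHLH, a secreted relative of parathyroid hormone, was higher in layer 4 by 0.77 ± 0.07 (adjusted p = 0.00044).

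Of 36 axon guidance genes, NTNG1 and EPHA3 were called higher in layer 4 and 0 in layer 5, with 8 and 7 at the adjusted p alone (9 and 8 without the S1 pair of female D) and a median of -0.03. NTNG1, netrin-G1, an anchored protein found on thalamocortical axons in the rodent, ran from 6.28 through 6.66 to 7.11 in layer 4 and from 4.92 through 5.45 to 5.76 in layer 5. It was higher in layer 4 in all 23 pairs (1.26 ± 0.19, adjusted p = 0.00315) and highest in layer 3, at 7.52. Its relative NTNG2 went the other way, at -0.71 ± 0.06 (adjusted p = 0.000357). EPHA3, an ephrin receptor, peaked in layer 4 at 9.61 (1.10 ± 0.18, adjusted p = 0.00544). In V2 every pair went the other way, between -1.01 and -0.05, whereas the other area means lay between 0.95 and 1.22. The EPHA3 call was lost in 9 of 27 alternatives. Among them were those without female F (0.99), without male B (0.94) and without the DLPFC or MT pairs. With animals weighted by their number of areas the difference was 0.86. The semaphorins SEMA3C (0.71) and SEMA6D (0.52) were higher in layer 4. The repellents SLIT2 (-0.62) and SLIT3 (-0.46) and the ephrin EFNB3 (-0.73) were higher in layer 5.

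Of 15 cadherins and protocadherins, 0 were called by limma, 6 were higher in layer 4 and 5 in layer 5 at the adjusted p alone, and 11 had an unadjusted p under 0.05 (median -0.01). Over all tested genes these shares were 8.62%, 9.73% and 33.7%. CDH9 was at -0.86 ± 0.10 and PCDH8 at 0.56 ± 0.10. In the Wnt and R-spondin pathway SOSTDC1 was the 1 call among 20 genes, with 4 higher in layer 4 and 5 in layer 5 at the adjusted p alone (4 and 6 without the S1 pair of female D, median -0.05). RSPO2, an enhancer of Wnt signals (0.75 ± 0.08), and TCF7L2, their nuclear effector (0.67 ± 0.07), were higher in layer 4. The ligands WNT5A and WNT7A (each -0.51) and the secreted modulators DKK2 (-0.55) and DKK3 (-0.45) were higher in layer 5. Among 13 enzymes that modify heparan sulfate, 0 were called by limma (9 at an unadjusted p under 0.05), with HS3ST5 at -0.77 and HS3ST2 at -0.71 on the layer 5 side and HS3ST1 at 0.46 on the layer 4 side (2 higher in layer 4 and 4 in layer 5 at the adjusted p alone, 3 and 4 without the S1 pair of female D, median -0.08). Of 7 matrix genes of perineuronal nets, 0 were called by limma and 4 had an unadjusted p under 0.05, with 1 higher in layer 4 and 2 in layer 5 at the adjusted p alone (median -0.08): HAPLN1, a link protein, was higher in layer 4 by 0.80 ± 0.08, while ACAN, the core proteoglycan aggrecan, was higher in layer 5 (-0.32 ± 0.06).

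Ion channels and transmitter receptors differed by less than the log2 threshold. Of 28 potassium channel genes, 0 were called by limma, 3 were higher in layer 4 and 6 in layer 5 at the adjusted p alone, and 11 had an unadjusted p under 0.05 (median -0.03). The shares over all tested genes were 8.62%, 9.73% and 33.7%. KCNA5, a delayed rectifier, was at -0.82 ± 0.10 and KCNMB4, a subunit of calcium-activated channels, at -0.65 ± 0.11. Of 13 sodium, calcium and HCN channel genes, 0 were called by limma, 1 was higher in layer 4 and 4 in layer 5 at the adjusted p alone (1 and 3 without the S1 pair of female D), and 6 had an unadjusted p under 0.05 (median -0.08). The sodium channel subunit SCN3B was at -0.81 ± 0.21 and the calcium channel gene CACNA1I at 0.30 ± 0.08.

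Of 5 glutamate receptor genes 1 passed in each direction at the adjusted p alone (median -0.04), GRIA1 of the AMPA class at -0.63 ± 0.05 and GRIK1 of the kainate class at 0.32 ± 0.06. Of 4 GABA receptor genes, GABRA2 was higher in layer 4 (0.51 ± 0.08), and GABRA3 (-0.55 ± 0.10) and GABRB1 (-0.39 ± 0.08) were higher in layer 5 (median -0.12). Among 16 amine and acetylcholine receptors the 2 that passed the adjusted p were both higher in layer 5, the serotonin receptor HTR1E at -0.86 ± 0.06 and the histamine receptor HRH1 at -0.79 ± 0.06 (median -0.02). The serotonin receptor HTR2A, at 0.59 (adjusted p = 0.0517), passed on the layer 4 side without the S1 pair of female D (0.59, adjusted p = 0.0452). None of these 3 lists had a gene called by limma, and 2, 4 and 3 of their genes had an unadjusted p under 0.05.

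Activity-regulated genes split. Of 12, EGR2 was called higher in layer 4 and BDNF higher in layer 5, with 2 and 3 at the adjusted p alone (median 0.01). In this list 5 had an unadjusted p under 0.05, against 33.7% of all tested genes. BDNF, a neurotrophin, ran from 6.19 through 6.28 to 6.66 in layer 4 and from 6.82 through 7.65 to 7.95 in layer 5, with no overlap (-1.24 ± 0.12, adjusted p = 0.000449). EGR2, an immediate early zinc finger factor, differed by 1.00 ± 0.10 (limma adjusted p = 0.000544). Its call was lost in 13 of 27 alternatives, among them when female D, E or F or male B was left out (0.94 to 0.99). A further EGR2 probe set, at a level under the median of all probe sets, differed by -0.12. FOS (-0.13), ARC (-0.04) and NR4A1 (0.07) had adjusted p values of 0.455, 0.632 and 0.674.

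RASGRP1 was the 1 call among 33 genes of G protein regulation and second messengers, of which 3 were higher in layer 4 and 5 in layer 5 at the adjusted p alone (3 and 6 without the S1 pair of female D, median -0.06). PLCH1, a phospholipase C, was at 0.89 ± 0.06 on the layer 4 side. MEIS2 was the 1 call among 26 transcription factors of cortical development, with 4 and 3 at the adjusted p alone (4 and 4 without the S1 pair of female D, median -0.01). In this list 9 had an unadjusted p under 0.05, against 33.7% of all tested genes. TSHZ3 was at 0.52 ± 0.11 and SOX5, a factor of deep layer neurons, at -0.49 ± 0.08. Excitatory neuron genes had 0 calls by limma among 6, with 2 in each direction at the adjusted p alone, 4 at an unadjusted p under 0.05 and a median of -0.01: BHLHE22 was higher in layer 4 (0.89 ± 0.09) and SLC17A7, the vesicular glutamate transporter, in layer 5 (-0.48 ± 0.04).

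Of 16 vesicle release genes, 3 were higher in layer 5 at the adjusted p alone (RAB3B at -0.64 ± 0.06, SV2B at -0.36 and SYT4 at -0.16), 4 without the S1 pair of female D. In layer 4, 0 were higher. Over all tested genes the shares were 9.73% in layer 5 and 8.62% in layer 4. Of the list, 0 were called by limma and 6 had an unadjusted p under 0.05, against 33.7% of all tested genes (median -0.14). Of 15 kinesins, tubulins and motor genes, 5 were higher in layer 5 at the adjusted p alone, led by TUBB at -0.48, and 0 were called by limma (median -0.04, 6 at an unadjusted p under 0.05). Of 4 large axon genes, STMN2 (-0.39) and SPP1 (-0.37) were higher in layer 5 at the adjusted p alone and NEFH, the heavy neurofilament, was at -0.33 ± 0.11 (adjusted p = 0.0616); the median was -0.35, 0 were called by limma and 3 had an unadjusted p under 0.05. Of 28 oxidative phosphorylation genes, limma called 0 and passed 0 at the adjusted p alone, with 3 at an unadjusted p under 0.05, a median of -0.03 and a range of -0.18 to 0.16.

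Of 12 tested genes of myelin and oligodendrocytes, 9 were higher in layer 5 at the adjusted p alone and 0 in layer 4, with a median of -0.40 and 0 called by limma (11 at an unadjusted p under 0.05). Their mean level lay between 8.78 and 9.17 over the animals in layer 4 and between 9.15 and 9.60 in layer 5. MBP, myelin basic protein, differed by -0.38 ± 0.04, and GPR37 by -0.55 ± 0.05. Of 4 genes of oligodendrocyte precursors, GPR17 was higher in layer 5 (-0.38 ± 0.10), as was CSPG4 without the S1 pair of female D (-0.16), 0 were called by limma, 4 had an unadjusted p under 0.05, and the median was -0.19. The part of these markers in the genes higher in layer 5 was not tested.

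Of 10 astrocyte genes 1 was called, AGT, the angiotensin precursor, and at the adjusted p alone 4 were higher in layer 5 and 1 in layer 4 (median 0.06). AGT ran from 4.28 in female F through 8.04 to 9.49 in layer 4 and from 7.43 through 9.46 to 10.29 in layer 5, with wide overlap. The difference of -1.63 ± 0.32 (adjusted p = 0.0102) ranged from -0.29 in female D to -3.15 in female F (MT alone). The MT pairs of the other animals lay between -3.04 and -1.48. Within S1, A1 and TE alone the AGT difference was -0.93 and not called. Without animal as a replicate block it kept its size but not its call (adjusted p = 0.268). GFAP, the glial filament, was higher in layer 5 (-0.69 ± 0.09), whereas the glutamate transporters SLC1A2 and SLC1A3 were at 0.06 and 0.08 (adjusted p = 0.430 and 0.267).

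Of 13 microglial genes CD53 was called, higher in layer 4 by 1.34 ± 0.28 (adjusted p = 0.0124). Its 2 other probe sets, both above the median level, differed by 0.23 and -0.02, and the mean of the 3 was not called (0.51). No other microglial gene was higher in layer 4 at the adjusted p alone, 1 was higher in layer 5 (TYROBP at -0.26), and the list median was -0.08. The mean level of the list lay between 6.25 and 6.60 in layer 4 and between 6.35 and 6.52 in layer 5. Of 9 vessel genes, 0 were called by limma and KCNJ8, a channel of pericytes, was higher in layer 5 at the adjusted p alone (-0.26 ± 0.07), with 3 at an unadjusted p under 0.05 and a median of -0.04.

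The contrast varied in size from area to area. Over the 34 genes higher in layer 4, the median of the area means was 0.85 in DLPFC, 0.71 in S1, 1.36 in A1, 1.36 in V2, 1.47 in MT and 1.32 in TE. Over the 36 genes higher in layer 5 it was -0.95, -0.79, -1.41, -1.47, -1.57 and -1.51 in the same order. Without the pair of female D the S1 medians were 1.02 and -1.07. Since the genes were chosen on the mean over these areas, the medians are a description.

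Whether the layer difference of a gene depended on the area was tested with limma's moderated F over the 23 pair differences with animal as a block. It called 103 genes (1.00% of 10291, with a fitted range over areas of at least 1; 122 at the adjusted p alone), and 123 without the S1 pair of female D, of which 86 were shared. The pairs of male B and female F, animals with 1 area each, carry no weight in this fit. For 79 of the 103 the area mean farthest from 0 was that of V2. The result rested on few libraries: limma called 0 genes without V2 (1076 at an unadjusted p under 0.05), 0 without female E (988), 0 without male C (1379), 21 without male A and 30 without female D. Spiked poly-A controls were also highest in V2, at a mean of 10.06 in layer 4 and 10.23 in layer 5, against 8.33 to 9.03 elsewhere. Hybridisation control probes varied less between arrays of S1, A1 and TE (SD 0.05 to 0.07) than of DLPFC, MT and V2 (0.18 to 0.23). These 2 sets of 3 areas follow that spread, and which arrays shared an amplification batch is not given. Within each set limma called 0 genes (851 and 1562 at an unadjusted p under 0.05). The part of these technical values in the differences between areas was not tested.

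The genes with the largest F are given pair by pair; 1 unnamed locus, LOC715293 (range 1.17, limma adjusted p = 0.0106), ranked between the fifth and the last of them and is not described further. DACH1, a dachshund family factor and 1 of the 11 genes called in both the layer and the area test, was lower in layer 4 of V2, at -2.92, -3.39, -2.63 and -2.34 in females D and E and males A and C. In the other 19 pairs it lay between -1.71 and 0.75, so V2 did not overlap with them. Its fitted range was 2.71 (adjusted p = 0.00344). KCNH8, a voltage-gated potassium channel of the layer 4 list, was higher in layer 4 of A1, at 2.35, 2.27 and 2.44 in females D and E and male C. In the other 20 pairs it lay between -1.57, in S1 of male C, and 0.76 (range 2.92, adjusted p = 0.00344).

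HRH1, the histamine H1 receptor, was lowest in layer 4 relative to layer 5 in V2, from -1.79 to -1.50, next in MT, from -1.17 to -0.88, and near 0 in S1, from -0.43 to -0.01 (range 1.46, adjusted p = 0.00344). CYP4X1, a cytochrome P450 of unsettled role, had means of -1.60 ± 0.11 (SD, n = 4) in V2, -1.18 ± 0.47 in MT and 0.00 ± 0.09 in DLPFC (range 1.56, limma adjusted p = 0.00993). SYNPR, a synaptic vesicle membrane protein, had means of -1.45 ± 0.32 in V2, -1.28 ± 0.21 in MT and -0.01 ± 0.58 in DLPFC (range 1.55, limma adjusted p = 0.0106). EDAR, a receptor of the tumour necrosis factor receptor family, went the other way, at 1.20 ± 0.23 in V2, 0.68 ± 0.20 in MT, 0.55 ± 0.21 in TE and -0.04 ± 0.03 in DLPFC (range 1.40, adjusted p = 0.0132). Without the S1 pair of female D all 6 stayed called. Without V2 none was called; KCNH8 kept a range of 2.95 (adjusted p = 0.0527), and the ranges of the other 5 lay between 0.78 and 1.22. Without A1 the range of KCNH8 was 0.90 (adjusted p = 0.304). With the mean of all probe sets of a gene, HRH1 (range 1.01, adjusted p = 0.0913) and SYNPR (0.47, adjusted p = 0.257) were not called.

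**Figure D4:**
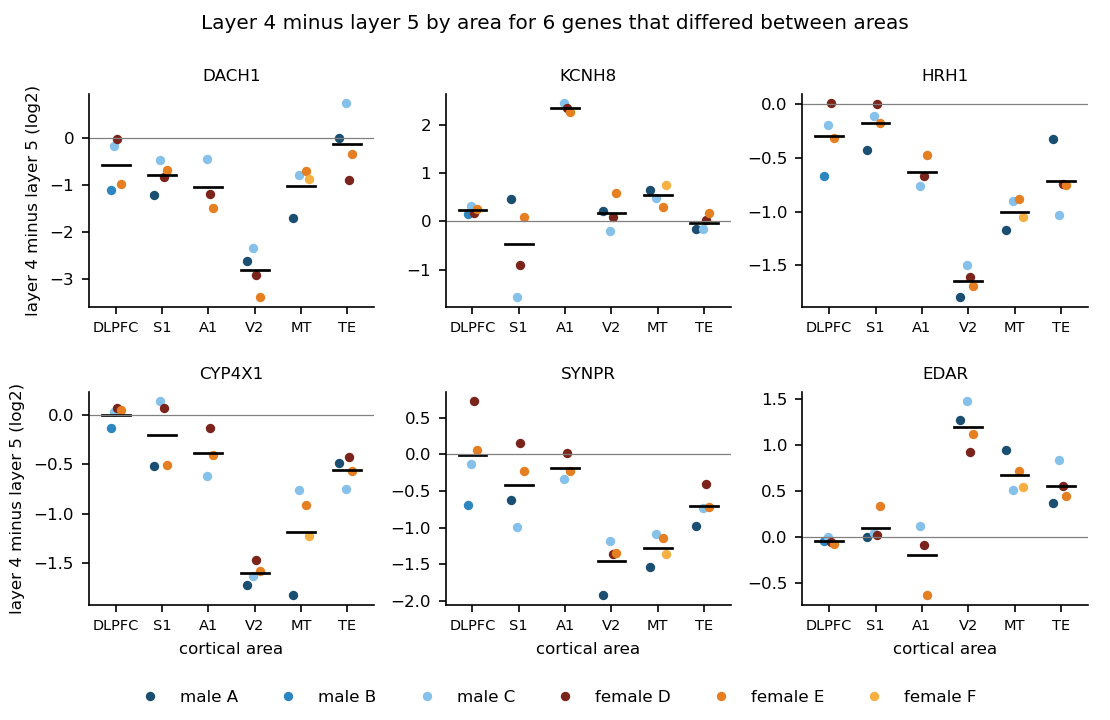
Layer 4 minus layer 5 on the log2 scale (vertical axes) in each of 6 areas (horizontal axes) for 6 genes with large F between areas, an unnamed locus passed over; each coloured point is 1 pair and the black bar is the area mean. DACH1, HRH1, CYP4X1 and SYNPR were lowest in V2, EDAR was highest there, and KCNH8 was highest in A1 (2.27 to 2.44).

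V1 arrays, which the comparison leaves out, gave the same measure in other tissue of 4 of the animals. The mean of layers 4ca and 4cb, the divisions of layer 4C that receive most of the input from the lateral geniculate nucleus, was compared with layer 5 in females D and E and males A and C. In limma 111 of 10219 genes (1.09%) were called higher in layer 4C and 127 (1.24%) higher in layer 5. The total of 238 depended on the animals, at 128 without female D, 48 without female E and 79 without male C. Of the 34 genes called higher in layer 4 of the granular areas, 30 were tested in V1: 23 were higher in layer 4C by their mean, 11 were called so, and 1, NEK11, a kinase noticed after its value was seen, was called the other way (-1.59 ± 0.27, adjusted p = 0.0349). Of the 36 called higher in layer 5, 27 were tested: 24 had the same sign, 10 were called and 0 were called the other way. The 21 shared calls were 30.0% of the granular calls and 8.82% of the V1 calls.

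Several genes had a larger value in V1 than in the granular areas; these differences were not tested. CUX2 was 9.51, 9.71, 9.78 and 10.11 in layer 4C (in the order females D and E, males A and C), and 4.41, 4.94, 4.22 and 5.94 in layer 5. The layers did not overlap, and the difference was 4.90 ± 0.24 (n = 4, limma adjusted p = 0.00144), against 1.33 in the granular areas. Within those, the CUX2 area means ran from -0.25 in TE to 3.04 in V2. FEZF2 was 6.00, 6.01, 5.06 and 4.93 in layer 4C and 8.53, 8.38, 8.23 and 8.31 in layer 5 of the same animals. It was called there (-2.86 ± 0.21, adjusted p = 0.00308), as was ETV1 (-2.62 ± 0.31, adjusted p = 0.011). SOSTDC1 was 3.36, 4.17, 3.45 and 3.62 in layer 4C and 6.80, 6.99, 7.50 and 7.45 in layer 5 (-3.54 ± 0.23, adjusted p = 0.00259). NTNG1 (2.35 ± 0.26) and GRP (-2.83 ± 0.27) were called in V1 in the direction of the granular areas, as were PVALB (1.14 ± 0.14), MXRA5 (1.55 ± 0.18), SH2D4B (1.98 ± 0.28), SYT6 (-2.43 ± 0.43) and AGT (-2.41 ± 0.27). Without female E the V1 calls of ETV1, NTNG1, GRP, PVALB, MXRA5, SH2D4B, SYT6 and AGT were lost, and without male C those of ETV1, NTNG1, PVALB, MXRA5 and SH2D4B; SYT6 was also lost without female D or male A.

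Other leading genes of the granular contrast were not called in V1. RORB was 6.09, 6.11, 6.48 and 6.33 in layer 4C and 5.70, 5.39, 5.02 and 5.06 in layer 5, higher in layer 4C in all 4 animals without overlap (0.96 ± 0.21, adjusted p = 0.0865). FBXO15, the largest granular difference, was 0.39 ± 0.16 (adjusted p = 0.34) and CBLN4 0.33 ± 0.36 (adjusted p = 0.76). VIP was at -0.32 ± 0.29 (adjusted p = 0.705), with male A at 0.75 and the other 3 animals between -1.03 and -0.42. MED14 was -0.91 ± 0.24 (adjusted p = 0.131), lower in layer 4C in all 4 animals and so opposite to the granular areas; in layer 4ca alone it was -2.12 and called (adjusted p = 0.0369), and in layer 4cb alone 0.29 (adjusted p = 0.486). TLL1 was under the level filter in V1, between 4.05 and 4.37 in layer 4C and between 4.04 and 5.83 in layer 5.

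**Figure D5:**
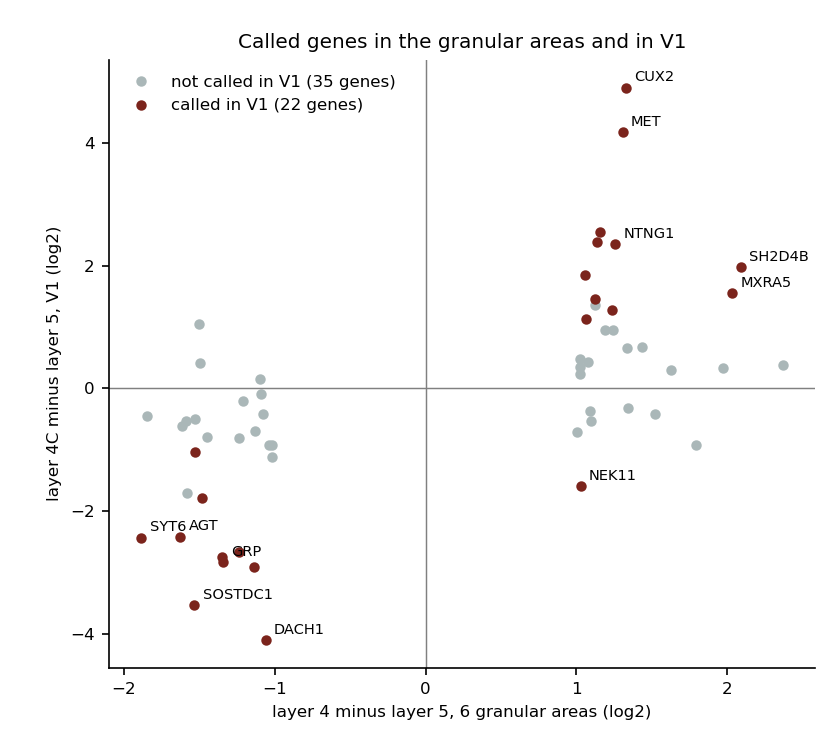
Each point is 1 of the 57 genes called in the granular areas and tested in V1, with its log2 difference between layers 4 and 5 of the granular areas on the horizontal axis and between layers 4C and 5 of V1 on the vertical axis; red points are called in V1. Of the 22 red points, 21 lie on the same side of 0 on both axes, with NEK11 the exception, and CUX2, at 1.33 and 4.90, lies highest.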

How the data were processed

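Intensities came from laser-captured tissue, amplified in 2 cycles from a few nanograms of total RNA per the labels' protocols. The deposited values are log10 normalized intensities: per the file headers, the authors ran RMA within each amplification batch and then scaled each probe set on whole brain control arrays. Which array belonged to which batch is not given in the sources used here. Values were multiplied by 3.322 to give log2. Of 52865 probe sets, 24969 had 1 gene symbol, 361 several and 27535 none. Symbols came from the platform annotation; 24629 had an Entrez ID in the RefSeq list and all kept the same symbol. Where probe sets shared a symbol, the brightest on average across experimental arrays stood for it (14133 genes), and 10291 with a mean over the 46 arrays above the median of all probe sets were tested.

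Differences within area and animal were averaged per animal and fitted with limma 3.58.1 in R 4.3.3. Animal codes pair the layers: deviations from group means correlated at a median of 0.218 over 207 array pairs of the same animal and at -0.0677 over 762 of different animals. Array labels give the animal, so the 6 animals are the replicates. The area test was limma's moderated F with animal as a block, and V1 used the same paired fit in 4 animals. The number of arrays limits the precision. No 2 of the arrays held identical values, and the code was tested on simulated data.

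Named genes were RORB, FEZF2 and ETV1, the 10 largest called genes in each direction with the same sign in all animals (unnamed loci passed over), up to 4 called members of each of 30 gene lists, and the genes with the largest F between areas. The comparison and the lists were chosen with earlier results of these data known. Alternatives changed the animals, areas, pairs, replicate block, normalization, probe set choice, filter and threshold.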

Additional observations from a re-analysis of the deposited data

Results flagged for a closer look

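In 3 of 32 named genes 1 animal stood apart from the other 5 in its layer 4 minus layer 5 difference; such a check marks some groups by chance alone. CBLN4 was 2.63 in female F, next to 1.99 in the nearest animal, and 1.85 on average without that animal (limma adjusted p = 8.12e-06). TLL1 was 3.45 in female F, next to 1.73, and 1.31 without it (limma adjusted p = 0.000789). NPY was -4.35 in male B, next to -1.81, and -1.35 without it (limma adjusted p = 0.00517). Both animals gave 1 pair each, female F in MT and male B in DLPFC, whereas the other 4 animals gave means over several areas. The other MT pairs lay between 1.62 and 2.84 for CBLN4 and between 1.61 and 2.78 for TLL1. The other DLPFC pairs of NPY lay between -0.21 and 0.66. The spiked poly-A controls differed between layers by 0.63 in female F and -0.46 in male B. In the other 4 animals they differed by -0.46 to 0.01. Their part in the 3 flagged differences was not tested.

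For 6 genes the layer difference depended on the area in limma's moderated F with animal as a block. The fitted ranges over areas were 2.71 for DACH1, 2.92 for KCNH8, 1.46 for HRH1, 1.56 for CYP4X1, 1.55 for SYNPR and 1.40 for EDAR on the log2 scale. All 6 calls were lost without V2, without female E and without male C. KCNH8 kept its range without V2 (2.95, limma adjusted p = 0.0527) and not without A1 (0.90, adjusted p = 0.304).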

How the results depend on the processing

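The layer count of 70 called genes was between 54 and 85 under all but 3 of the 28 alternatives, with a range of 59 to 82 when each animal was left out. The exceptions were the mean of all probe sets of a gene (40), a filter at the 75th percentile (44) and the adjusted p alone (1888). Named genes kept their side of the threshold in 803 comparisons, fell short in 42, gained a call in 3 and reversed in 0. Without animal as a replicate block the layer count was 60, the V1 count 242 and the area count 226; AGT and CUX2 lost their calls (limma adjusted p = 0.268 and 0.0717). The area count of 103 was 55 without DLPFC, 49 without A1, 0 without V2, 44 with no filter on low values, 60 with the mean of all probe sets, 307 without the 3 pairs least like the others, and 0 in S1, A1 and TE alone or in DLPFC, MT and V2 alone (the last 3 chosen after seeing the data). Leaving out each animal gave 0 to 103. The V1 count of 238 ran from 48 to 231 when each animal was left out. Signs of uncalled V1 differences reversed for CBLN4 (-0.13 to 0.56) and PKIB (-0.34 to 0.65) with 1 animal left out and for MEIS2 (-0.27 to 0.13). In layer 4ca alone MDM1 was -0.013 and VIP 0.26, and in layer 4cb alone MED14 was 0.29 (-2.12 and called in layer 4ca alone, adjusted p = 0.0369), RASGRP1 0.39 and MEIS2 0.11. The cause was not tested. Signal over background limits genes under the level filter.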

Other observations

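Further called genes were singled out after their values were seen. Of the contactins, adhesion molecules of axons, CNTN5 was higher in layer 4 (1.14 ± 0.17) and CNTN6 in layer 5 (-1.23 ± 0.22). The retinoic acid receptor RARB was higher in layer 4 (1.03 ± 0.10), while RBP4, a retinol carrier, was higher in layer 5 (-1.18 ± 0.27), as was CYP26A1 (-1.57 ± 0.17). MET, the receptor of hepatocyte growth factor, differed by 1.31 ± 0.12 in the granular areas and by 4.18 ± 0.42 in V1. NRG1, a ligand of ErbB receptors, was lower in layer 4 in all 23 pairs (-1.53 ± 0.11), and NXPH2, a neurexin ligand, differed by -1.48 ± 0.08. Among 10377 tested probe sets without a single symbol, 21 were called higher in layer 4 and 26 higher in layer 5.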
